A study of Mus musculus with 10 samples.

Results

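The family of miR-148a, miR-148b and miR-152 was measured on 10 mouse microRNA arrays, of which 5 held T-C cell samples and 5 held control cell samples. Its members were taken by name, as every array entry with the stem miR-148a, miR-148b or miR-152 and either arm of the precursor hairpin. That gave 6 of the 1892 miRNAs on the array, which are the 3p and the 5p arm of each of 3 genes, and 12 of the 3784 miRNA spots. T-C cell samples carry the source label Col-/-, and control cell samples the source label Control Col. The labels give all animals as male, the material as sle liver and a mouse liver cell culture, and state 0.5 mg of TN-CF per 100000 T-C cells in a dish for 24 hours, alongside a control. The labels do not explain T-C, TN-CF, Col or sle, and the design text spells the agent TB-CF. The treatment text is the same on all 10 samples and does not say which group received the agent, while the file headers call the T-C cell arrays treated and the control cell arrays control. Treatment as the headers give it and the source label go together, so their parts in any difference cannot be told apart. Nothing says that replicates are separate animals or cultures, so p-values measure the spread between these 5 and 5 samples, which may be technical. In bulk RNA, fewer cells of a type and less of a miRNA per cell cannot be told apart.

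A microRNA hairpin is cut into 2 short arms, one of which usually enters the Argonaute protein and directs it to messenger RNAs that pair with the seed, bases 2 to 8 of the arm. The 3 genes of the family share the seed of their 3p arms and so share many predicted targets. In liver, miR-148a is among the abundant miRNAs of hepatocytes, where work in mice links it to hepatocyte differentiation through the maintenance DNA methyltransferase Dnmt1. In human cells the low-density lipoprotein receptor and the cholesterol exporter ABCA1 are described targets of miR-148a. In mice, members of the family are also described as regulators of dendritic cell and B cell responses.

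The 3 mature 3p arms are the sequences that the results turn on, and are printed 5′ to 3′ with the seed in capitals, from RefSeq on GRCm38.p6.
mmu-miR-148a-3p: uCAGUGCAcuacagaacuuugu
mmu-miR-148b-3p: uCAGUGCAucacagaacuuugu
mmu-miR-152-3p: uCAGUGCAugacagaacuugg
All 3 share the seed CAGUGCA, and no other miRNA on the array carries it. Counted from 1 at the 5′ end, miR-148b-3p differs from miR-148a-3p by C9U and U10C. miR-152-3p differs from miR-148a-3p by C9U, U10G and U20G, and is 21 bases long, against 22 for miR-148a-3p. Between miR-148b-3p and miR-152-3p the differences are C10G and U20G. With so few differences, a probe may also bind a relative, and the share of a spot's brightness that came from a relative was not tested.

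The 5p arms differ more, and are shown because their seeds separate one member from the other two.
mmu-miR-148a-5p: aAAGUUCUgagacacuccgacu
mmu-miR-148b-5p: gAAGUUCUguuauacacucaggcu
mmu-miR-152-5p: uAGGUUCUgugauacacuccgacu
miR-148a-5p and miR-148b-5p share the seed AAGUUCU, and miR-152-5p has AGGUUCU, which no other miRNA on the array carries. All 6 RefSeq sequences equal the target sequences given in the array files.

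The hairpins show how each pair of arms sits in its precursor, with both arms in capitals, the 5p arm first.
Mir148a: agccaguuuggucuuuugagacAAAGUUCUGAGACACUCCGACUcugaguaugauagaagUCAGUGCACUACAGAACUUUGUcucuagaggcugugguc
Mir148b: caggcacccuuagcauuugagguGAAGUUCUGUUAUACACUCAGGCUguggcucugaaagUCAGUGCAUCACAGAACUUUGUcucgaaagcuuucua
Mir152: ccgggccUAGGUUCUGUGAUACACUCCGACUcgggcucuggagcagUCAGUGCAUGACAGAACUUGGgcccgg
Mir148a lies at chr6:51269812-51269910 on the minus strand, outside other annotated genes (GRCm38, GENCODE M21). Mir148b lies at chr15:103285125-103285221 on the plus strand, within an intron of Copz1 and on its strand. Mir152 lies at chr11:96850393-96850465 on the plus strand, within an intron of Copz2 and on its strand. Copz1 and Copz2 encode the paralogous zeta subunits of the COPI vesicle coat. The mature 3p arms are at chr6:51269829-51269850, chr15:103285185-103285206 and chr11:96850439-96850459.

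The arrays gave spot intensity, a linear brightness, and a miRNA counted as detected on an array where its 2 spots averaged more than 3 SD above the average of the 16 blanks. These limits ran from 133 to 474 on T-C cell arrays and from 64.0 to 320 on control cell arrays, and 189 to 1314 miRNAs were detected per array. Principal component analysis of the normalized levels set T-C cell replicate 1 apart along its first axis (50.4% of the variance), so the differences and ratios are also given without it. The same axis separated the groups, with T-C cell arrays at -15.8 to -1.34 and control cell arrays at 1.63 to 8.05. T-C cell replicate 1, at -15.8, is thus the array farthest from the control cell arrays on that axis. The hepatocyte marker miR-122-5p, the most abundant miRNA of hepatocytes, was detected on 1 of 10 arrays, with 101 to 193 on T-C cell arrays and 57.8 to 178 on control cell arrays. miR-192-5p and miR-194-5p, which liver shares with gut and kidney epithelium, were detected on 10 of 10. The defining miRNA of hepatocytes was thus near background in samples labelled as liver.

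miR-148a-3p and miR-152-3p were detected on 10 of 10 arrays and miR-148b-3p on 9 of 10, while all 3 of the 5p arms were near background. miR-148a-3p was the brightest member on every array, followed by miR-152-3p and then miR-148b-3p, an order seen on 10 of 10 arrays. Brightness also depends on the probe, so this order is one of brightness and not of molecules. Across arrays the ranges of neighbours in the order overlap.

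miR-148a-3p had intensities of 1303, 2332, 985, 3474 and 3020 on T-C cell arrays 1 to 5, against 2625, 1443, 2031, 2581 and 3371 on control cell arrays 1 to 5. T-C cell replicates 1 and 3 were lower than every control cell array, T-C cell replicate 4 was higher than every control cell array, and the groups overlap. The means were 2223 ± 1071 on T-C cell arrays and 2410 ± 721 on control cell arrays (SD, n = 5 each). It ranked between 45th and 140th of 1892 miRNAs by brightness on each array.

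miR-152-3p had intensities of 967, 796, 802, 1170 and 894 on T-C cell arrays 1 to 5, against 1072, 731, 1049, 761 and 898 on control cell arrays 1 to 5. The highest value was on T-C cell replicate 4 and the lowest on control cell replicate 2, and the groups overlap throughout. The means were 926 ± 154 on T-C cell arrays and 902 ± 158 on control cell arrays (SD, n = 5 each). Its brightness rank lay between 122 and 181.

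miR-148b-3p had intensities of 682, 506, 339, 806 and 528 on T-C cell arrays 1 to 5, against 529, 406, 454, 458 and 418 on control cell arrays 1 to 5. T-C cell replicates 1 and 4 were higher than every control cell array and T-C cell replicate 3 was lower than all of them. The value of 339 on T-C cell replicate 3 was under the limit of 474 on that array, so miR-148b-3p was detected on 9 of 10 arrays. The means were 572 ± 179 on T-C cell arrays and 453 ± 48.1 on control cell arrays (SD, n = 5 each), and the brightness rank lay between 171 and 369.

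The 5p arms are the strands described as the less abundant ones for this family. miR-148a-5p had 78.8 to 257 on T-C cell arrays and 78.9 to 202 on control cell arrays. miR-148b-5p had 79.2 to 254 on T-C cell arrays and 69.6 to 195 on control cell arrays, and miR-152-5p had 72.8 to 253 on T-C cell arrays and 62.2 to 192 on control cell arrays. Of these 30 readings, 2 passed the limit of their array, miR-148a-5p and miR-148b-5p on control cell replicate 5, which has the lowest limit. All 30 lay between 0.805 and 1.44 times the mean of the blank spots, so a difference between groups was not detectable for the 5p arms. In a limma fit over all 1892 miRNAs, their log2 differences were -0.07 for miR-148a-5p, 0.0039 for miR-148b-5p and 0.01 for miR-152-5p, with adjusted p of 0.874 to 0.995.

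**Figure D1:**
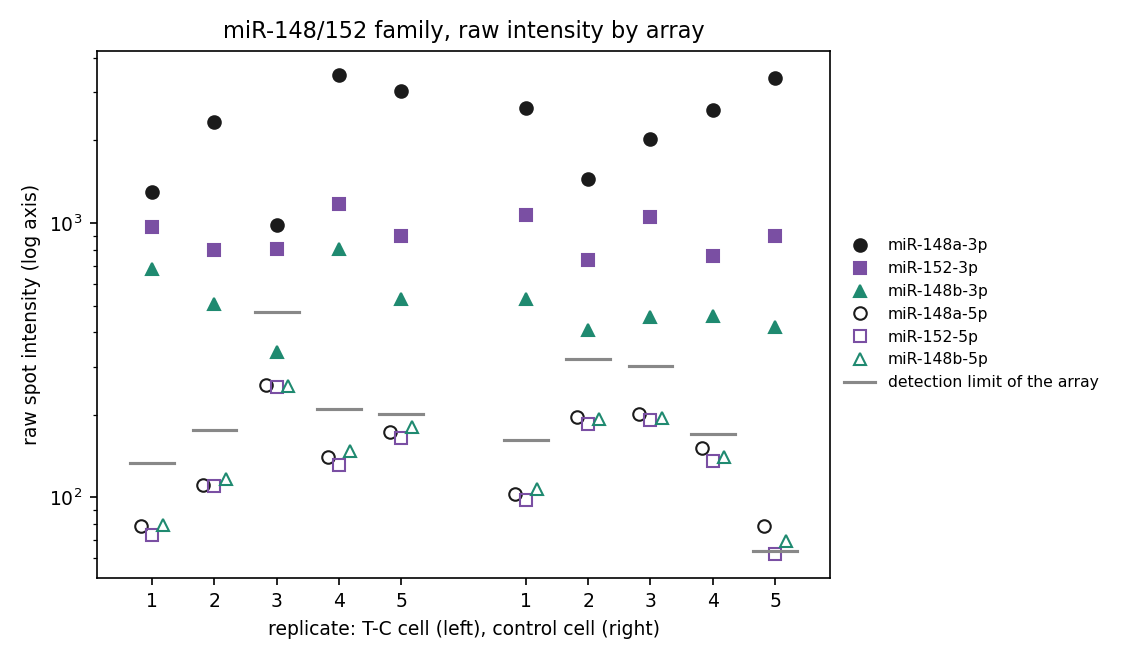
Raw spot intensity (log axis, mean of 2 spots) of the 6 members on each of the 5 T-C cell arrays (left) and 5 control cell arrays (right). Filled symbols are 3p arms, open symbols 5p arms and grey bars the detection limit of each array. The 3p arms lie above the limit except miR-148b-3p on T-C cell replicate 3, and 28 of 30 readings of the 5p arms do not pass it.

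Whether the family differed between T-C cell and control cell was tested on log2(intensity + 50) after cyclic loess normalization, with limma across the 476 miRNAs detected on at least 5 of 10 arrays. The 3 members with 3p arms passed this detection filter, and the 5p arms did not. At a Benjamini-Hochberg adjusted p under 0.05, 0 of 3 tested members passed, against 37 of 476 tested miRNAs, or 7.77% (1.47% higher and 6.30% lower in T-C cell). At an unadjusted limma p under 0.05 the count was also 0 of 3 members, against 87 of 476 tested miRNAs. The groups of 0 members did not overlap, against 3.78% of all tested miRNAs. With 3 members, a count of 0 is also near what the share over all miRNAs gives.

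miR-148a-3p had normalized log2 levels of 9.95, 11.32, 10.28, 11.39 and 11.73 on T-C cell arrays 1 to 5, against 11.28, 10.63, 10.98, 11.42 and 11.71 on control cell arrays 1 to 5. The means were 10.93 ± 0.77 on T-C cell arrays and 11.21 ± 0.41 on control cell arrays (SD, n = 5 each). The log2 difference was -0.27 (SE 0.34, 95% interval -1.01 to 0.47), a fold of 0.829 with an interval of 0.496 to 1.39, and the limma adjusted p was 0.760. T-C cell replicates 1 and 3 lay below every control cell array and the other 3 lay among or above them.

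Without T-C cell replicate 1 the log2 difference of miR-148a-3p was -0.0038. Without both T-C cell replicates 1 and 3, a choice made after their values were seen, it was 0.30. With all arrays kept but weighted by their quality in limma, it was 0.13. The sign of the miR-148a-3p difference is therefore not settled by these arrays.

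miR-152-3p had normalized log2 levels of 9.40, 9.96, 10.06, 9.93 and 9.98 on T-C cell arrays 1 to 5, against 10.15, 9.69, 10.06, 9.74 and 9.98 on control cell arrays 1 to 5. T-C cell replicate 1 was the lowest of the 10 arrays, and the other 4 T-C cell arrays lay within the range of the control cell arrays. The log2 difference was -0.06 (SE 0.17, 95% interval -0.43 to 0.32), a fold of 0.961 with an interval of 0.740 to 1.25, and the limma adjusted p was 0.903. Without T-C cell replicate 1 it was 0.0575, without control cell replicate 1 it was 0.0033, and with quantile normalization of all arrays it was 0.026. The sign of the miR-152-3p difference is therefore not settled by these arrays.

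miR-148b-3p had normalized log2 levels of 9.02, 9.43, 8.89, 9.49 and 9.23 on T-C cell arrays 1 to 5, against 9.34, 8.92, 8.93, 9.05 and 9.06 on control cell arrays 1 to 5. T-C cell replicates 2 and 4 were above every control cell array and T-C cell replicate 3 was below them all. The log2 difference was 0.15 (SE 0.17, 95% interval -0.23 to 0.53), a fold of 1.11 with an interval of 0.853 to 1.44, and the limma adjusted p was 0.731. Without T-C cell replicate 1 it was 0.19. The 3 differences had a median of -0.06, against 0.02 over all 476 tested miRNAs. A p over the threshold does not show equal levels: the interval of miR-148a-3p reaches down to a fold of 0.496, that of miR-152-3p to 0.740 and that of miR-148b-3p up to 1.44.

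**Figure D2:**
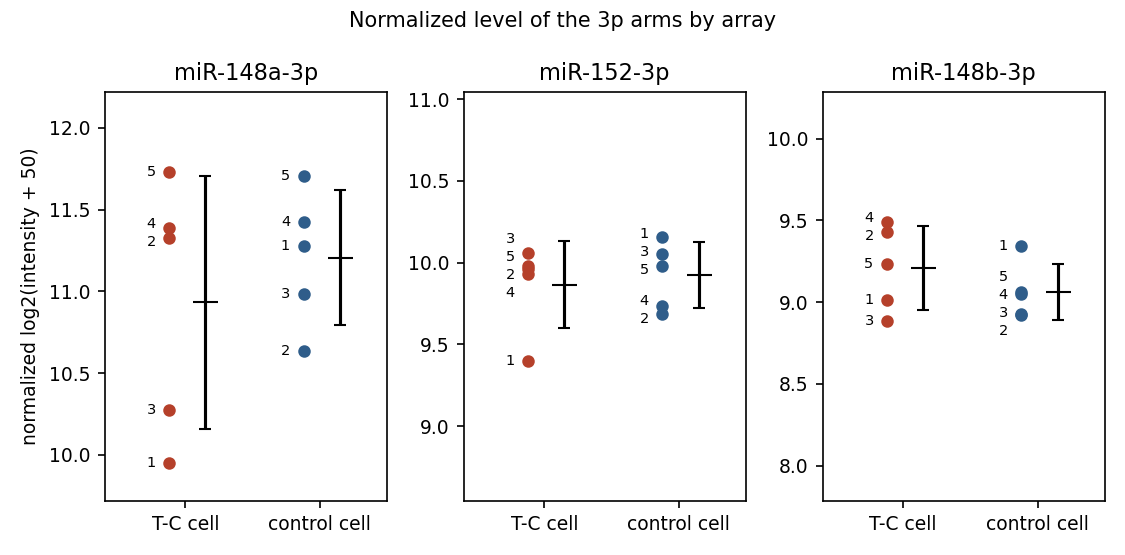
Normalized log2(intensity + 50) of the 3 tested members in T-C cell (red, left) and control cell (blue, right), with 1 point for each array numbered by replicate and a bar for mean ± SD (n = 5 each). The vertical axes span the same range in the 3 panels, and miR-148a-3p spreads the most, with T-C cell replicates 1 and 3 at 9.95 and 10.28.

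**Figure D3:**
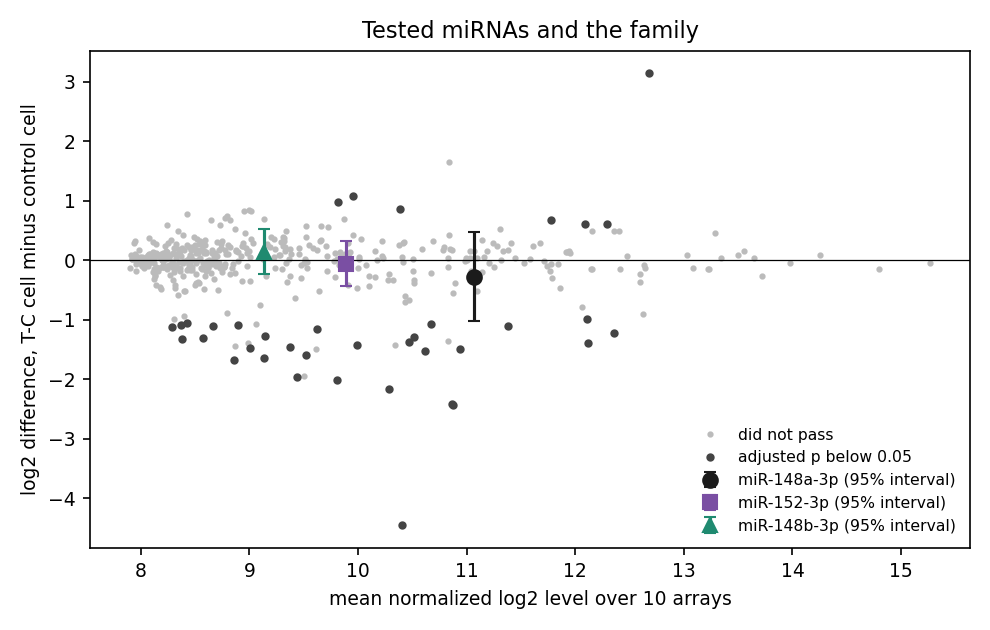
Log2 difference (T-C cell minus control cell) against mean normalized log2 level for the 476 tested miRNAs, with the 3 family members as large symbols with 95% intervals. The members lie near 0, at -0.27, -0.06 and 0.15, and all 3 intervals include 0.

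miR-148a-3p varied more within groups than its relatives. Its SD on the log2 scale was 0.77 in T-C cell, larger than that of 91.8% of tested miRNAs (median 0.33), and 0.41 in control cell, larger than 85.5% (median 0.20). For miR-152-3p the SD was 0.26 on T-C cell arrays and 0.20 on control cell arrays, and for miR-148b-3p it was 0.26 on T-C cell arrays and 0.17 on control cell arrays. These SDs were larger than those of 33.2% to 51.1% of tested miRNAs.

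Ratios between members within an array were taken from the raw intensities with no normalization between arrays, and 3 such ratios were compared by exact two-sided permutation, with Benjamini-Hochberg adjustment over the 3. The ratio of miR-148a-3p to miR-148b-3p, each with 50 added, was 1.85, 4.29, 2.66, 4.11 and 5.31 on T-C cell arrays 1 to 5, against 4.62, 3.27, 4.13, 5.15 and 7.28 on control cell arrays 1 to 5. The mean log2 ratios were 1.77 ± 0.61 on T-C cell arrays and 2.24 ± 0.43 on control cell arrays (SD, n = 5 each), a difference of -0.47 with an exact adjusted p of 0.298. On T-C cell replicate 3 miR-148b-3p was under its detection limit, so the ratio there rests on an undetected reading. T-C cell replicates 1 and 3 were below every control cell array. The difference was -0.25 without T-C cell replicate 1, -0.054 without both, and -0.40 with 200 added in place of 50.

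The ratio of miR-148a-3p to miR-152-3p was 1.34, 2.82, 1.21, 2.89 and 3.25 on T-C cell arrays 1 to 5, against 2.38, 1.91, 1.89, 3.22 and 3.61 on control cell arrays 1 to 5. Again T-C cell replicates 1 and 3 were below every control cell array, and the log2 difference was -0.24 with an exact adjusted p of 0.492. The ratio of miR-148b-3p to miR-152-3p was 0.724, 0.657, 0.456, 0.702 and 0.612 on T-C cell arrays 1 to 5, against 0.516, 0.584, 0.458, 0.626 and 0.496 on control cell arrays 1 to 5. T-C cell replicates 1, 2 and 4 were above every control cell array and T-C cell replicate 3 was below them all, with a log2 difference of 0.22 and an exact adjusted p of 0.298. On T-C cell replicate 3 miR-148b-3p was under its detection limit, and without that array this difference was 0.34 (exact adjusted p 0.0952). Without T-C cell replicate 1 the differences were -0.077 for miR-148a-3p to miR-152-3p and 0.17 for miR-148b-3p to miR-152-3p. The smallest p this design can give is 0.00794.

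Background brightness enters these ratios, and the blank spots averaged 223.5 on T-C cell replicate 3 and 82.2 on T-C cell replicate 1, against 55.0 to 227.5 on control cell arrays. With the blank mean of each array subtracted, the ratio of miR-148a-3p to miR-148b-3p was 2.05, 5.98, 6.62, 4.97 and 7.80 on T-C cell arrays 1 to 5, against 5.91, 6.82, 7.45, 7.13 and 9.09 on control cell arrays 1 to 5. T-C cell replicates 1 and 4 then lay below every control cell array, and T-C cell replicate 3, where miR-148b-3p was under its detection limit, did not. The ratio of miR-148a-3p to miR-152-3p was then 1.40 on T-C cell replicate 1 and 1.32 on T-C cell replicate 3, against 2.16 to 3.93 on control cell arrays, so both stayed below, and the other 3 T-C cell arrays lay within that range. The log2 differences after subtraction were -0.53, -0.28 and 0.25, with exact adjusted p of 0.405, 0.492 and 0.492.

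**Figure D4:**
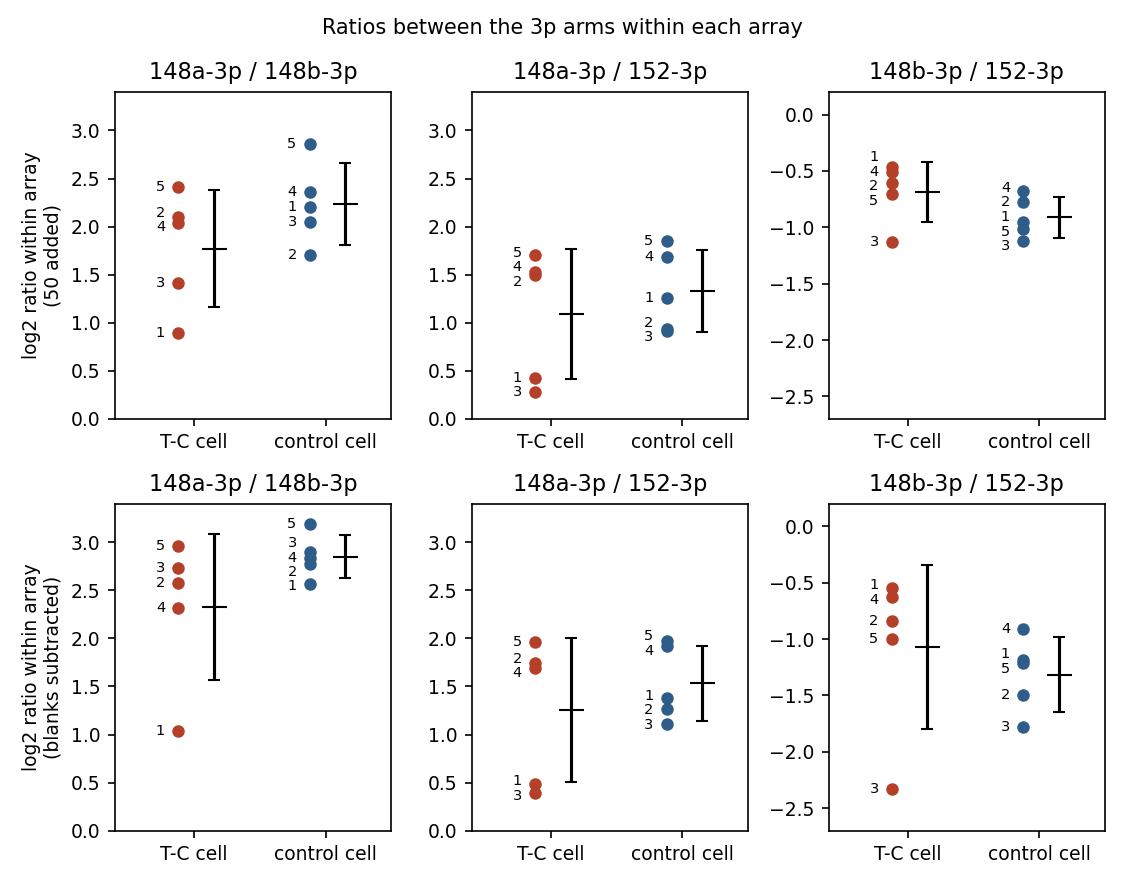
Log2 ratio between 3p arms within each array, with 50 added (top) or the blank mean subtracted (bottom), in T-C cell (red, left) and control cell (blue, right), with 1 point for each array numbered by replicate and a bar for mean ± SD (n = 5 each). T-C cell replicate 1 lies below all control cell arrays in both ratios with miR-148a-3p and under both treatments of background.

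The arms of one hairpin were also set against each other, as values only, since the 5p arms are at background. Each intensity had 50 added before these ratios of arms were taken. The ratio of 3p to 5p was 3.37 to 18.5 on T-C cell arrays and 6.04 to 26.4 on control cell arrays for miR-148a. For miR-152 it was 2.82 to 8.21 on T-C cell arrays (median 5.29) and 3.31 to 8.42 on control cell arrays (median 4.53). For miR-148b it was 1.28 to 5.64 on T-C cell arrays (median 3.33) and 1.88 to 3.91 on control cell arrays (median 2.67). The ranges of the groups overlap for all 3 hairpins.

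Patterns over the 10 arrays were compared by the root mean square difference between mean-centred log2 levels, over 475 other tested miRNAs. Nearest to miR-148a-3p were miR-139-5p at 0.27, miR-568 at 0.31 and miR-196b-5p at 0.34, while its relatives miR-148b-3p and miR-152-3p came 39th and 43rd. miR-139-5p had its 2 lowest T-C cell values on the same arrays, with normalized log2 levels of 8.47 on T-C cell replicate 1 and 9.37 on T-C cell replicate 3, against 9.77 to 10.12 on control cell arrays. Nearest to miR-152-3p were miR-186-5p, miR-532-5p and miR-411-3p at 0.09 to 0.13, and nearest to miR-148b-3p were miR-350-3p, miR-25-3p and miR-466o-3p at 0.16 to 0.17. Some of these neighbours were under the detection limit on some arrays. On T-C cell replicate 3, with a limit of 474, only miR-25-3p at 1415 and miR-139-5p, just over it at 477, were detected. There miR-568 and miR-186-5p each read 363.5, miR-532-5p 348 and miR-350-3p 343. miR-411-3p read 309, miR-196b-5p 252 and miR-466o-3p 236 on that array. On T-C cell replicate 1, with a limit of 133, miR-196b-5p read 75.9. A miRNA with the same level on every array would lie at 0.57 from miR-148a-3p and at 0.21 from each of miR-152-3p and miR-148b-3p. The neighbours of miR-148b-3p are thus little closer than such a flat profile, and miR-152-3p, at 0.25 from it, is farther. None of the 9 nearest miRNAs named here passed the test between groups, against 7.77% of all tested miRNAs. They were chosen on these arrays for likeness to members that did not pass, so this count is no separate result. The low values that miR-139-5p shares with miR-148a-3p follow from the same choice.

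Other liver-enriched miRNAs did not pass either. Of 10 listed, 8 were tested and 0 rose, 0 fell and 8 did not pass in the limma fit, against 7.77% passing among all tested miRNAs. With 8 tested, a count of 0 is also near what that share gives. The median log2 difference of these 8 was 0.10, against 0.02 over all tested miRNAs. Their differences ran from -0.10 for miR-22-3p to 0.47 for miR-192-5p. On control cell replicate 1 the 2 spots of miR-192-5p read 167 and 15049, so its value there is uncertain. Among 6 miRNAs known to act on DNA methyltransferases, as family members do, 0 rose, 1 fell and 5 did not pass, with a median of -0.13, and over all tested miRNAs 6.30% fell. The one that fell was miR-29a-3p, whose family acts on the de novo DNA methyltransferases in human cells, which had 190 to 445 on T-C cell arrays and 5206 to 7504 on control cell arrays (log2 difference -4.45, SE 0.21, limma adjusted p 3.74e-08).

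Markers of other cell types give the setting of these values. Of 5 tested leukocyte markers 1 rose, miR-150-5p of mature lymphocytes, with a log2 difference of 0.86 and a limma adjusted p of 0.0433, against 1.47% that rose among all tested miRNAs. This call ended under 14 of 23 alternatives, 7 of which left out 1 array (T-C cell replicate 1, 4 or 5, or control cell replicate 1, 2, 3 or 5), with limma adjusted p of 0.0223 to 0.876 over the 23. Summed leukocyte marker brightness was 2016 to 4931 on T-C cell arrays and 1697 to 2301 on control cell arrays. miR-150-5p is part of that sum, at 1007 to 3218 on T-C cell arrays and 693 to 1205 on control cell arrays. Epithelial markers summed to 20030 to 33960 on T-C cell arrays and 19430 to 33910 on control cell arrays. Fibroblast and smooth muscle markers summed to 30250 to 56380 on T-C cell arrays and 37470 to 44970 on control cell arrays. Muscle markers summed to 2666 to 4136 on T-C cell arrays and 3635 to 4971 on control cell arrays. Markers of endothelial cells (1 tested), fibroblasts and smooth muscle (5), epithelium (5), muscle (4) and erythroid cells (1) gave 0 that passed, against 7.77% of all tested miRNAs. The muscle differences were -0.67 for miR-133a-3p (limma adjusted p 0.119), -0.70 for miR-133b-3p (0.0813), -0.06 for miR-206-3p and 0.25 for miR-1a-3p. Not passing does not show equal levels. The part of cell makeup in the levels of the family was not tested.

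The 2 spots of each 3p arm differed in one direction. The second spot was brighter on 10 of 10 arrays for each of the 3, by a median of 17.0% for miR-148a-3p, 12.6% for miR-152-3p and 11.6% for miR-148b-3p. In the same columns and within 20 rows of them, the median over 16 other tested miRNAs was also brighter in the second spot on 10 of 10 arrays, by a median of 9.36% over the arrays. The median over all tested miRNAs was brighter in the second spot on 4 of 10 arrays. Both groups share this layout, and levels are means of the 2 spots.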

How the data were processed

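Per the labels' protocols, 1 µg of Trizol-extracted total RNA was tailed with poly(A), ligated to a tag and stained with Cy3 for one-colour arrays of LC Sciences. Per the file headers, the deposited files give the median spot intensity, with 2 spots for each miRNA and no scaling between arrays, and columns for a second channel hold no values in any of the 10 files. No label or header names the scanner or the miRBase release. The headers number the arrays without saying what is numbered, so no batch was drawn from them. The precision is limited by the number of arrays, 5 in each group.

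Spots were averaged after taking log2(intensity + 50), and arrays were normalized by cyclic loess over all 1892 miRNAs. Detection needed a mean above the blank mean plus 3 SD, and testing needed detection on 5 of 10 arrays. Groups, taken from the sample titles, were compared with limma 3.58.1 (R 4.3.3, trend, two-sided, Benjamini-Hochberg over 476 miRNAs, threshold 0.05), fitted on the whole table. The 5p arms, which did not pass the filter, are given from a fit over all 1892. Ratios within arrays were compared by exact permutation (scipy 1.17.1, Python 3.11.15). Named neighbours are the 3 miRNAs with the smallest root mean square difference to each 3p arm. Alternatives covered the scaling, the offset, background subtraction, the detection filter, array weights, a replicate block and leaving out each array. The script was tested on simulated data. Members, lists and tests were chosen with earlier results of these data known. Sequences are from RefSeq (GRCm38.p6), and gene positions from GENCODE M21 (GRCm38), counted from 1.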

Additional observations from a re-analysis of the deposited data

Results flagged for a closer look

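The normalized log2 level of miR-152-3p on T-C cell replicate 1 was 9.40, far from the other 4 T-C cell arrays, which lay between 9.93 and 10.06. The gap to the nearest of them was 0.807 of the range of the group, over Dixon's 95% limit for 5 samples. Its raw intensity there, 967, was the second highest of the T-C cell arrays. This was 1 of 12 groups examined, and chance alone flags about 1 in 20 groups.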

How the results depend on the processing

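None of the 3 tested members passed the limma test under any alternative run, with adjusted p between 0.434 and 0.9995. The difference of miR-148b-3p stayed positive in 22 alternatives, from 0.05 to 0.30. That of miR-148a-3p ranged from -0.47 to 0.30, turning positive with array weights (0.13) and without both T-C cell replicates 1 and 3 (0.30), and ran from -0.47 to -0.0038 with each array left out in turn. That of miR-152-3p turned positive with quantile normalization (0.026), no normalization (0.036), blank subtraction (0.030) and without both T-C cell replicates (0.037), and ran from -0.12 to 0.0575 with each array left out. Without those 2 arrays the log2 ratio of miR-148a-3p to miR-152-3p differed by 0.25, against -0.40 to -0.041 with each array left out in turn. With each array left out, the ratio of miR-148a-3p to miR-148b-3p differed by -0.63 to -0.25 and that of miR-148b-3p to miR-152-3p by 0.17 to 0.34. The cause of these turns was not tested beyond the arrays left out.

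Of all tested miRNAs 37 passed, 7 higher and 30 lower in T-C cell. The number was 14 with median centring (1 higher, 13 lower), 3 with blank subtraction, 1 with no detection filter, 18 with detection required on all 10 arrays and 1 without both T-C cell replicates, and 1 to 44 with each array left out. With quantile normalization, 14 were higher and 33 lower. The cause of these shifts was not tested. Leaving out the normalization moved the median of all tested miRNAs by 0.12, to 0.14. The labels name no pairing. Deviations of same-numbered samples had correlations of -0.20 to 0.26, which were not compared with those of unlike-numbered samples. Whether equal numbers pair samples is therefore unknown, and a fit with a replicate block called 22. The number of arrays and, for the 5p arms, brightness at background limit what could be detected.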
